A study of Homo sapiens with 3 samples.

Results

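The urea cycle turns ammonia into urea in hepatocytes, and glutamine synthetase binds what ammonia remains into glutamine. The 9 genes described here encode the cycle's enzymes CPS1, OTC, ASS1, ASL and ARG1, the enzyme NAGS that makes the activator of CPS1, the mitochondrial carriers SLC25A15 and SLC25A13, and glutamine synthetase, GLUL. They were found by symbol through their Ensembl identifiers, and all 9 are among the 19869 genes of the table. All 9 also had a mean of at least 1 FPKM (fragments per kilobase, relative to library size) over the 3 libraries, as did 10974 genes that are called the tested genes below.

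The RNA came from Hep3B, a cell line of human hepatocellular carcinoma, and each of the 3 groups was sequenced as 1 library. The control is titled NT-Empty and its treatment label names the Fugene transfection reagent. The second group was transfected with pcDNA3.1-HKR3, a plasmid for the zinc finger protein HKR3 (gene ZBTB48), and the third with siTERT, an RNA against the telomerase gene TERT. Whether the control received an empty plasmid, a control RNA or both is not stated in the labels, and neither is the time of harvest. There were no replicates, so no test was made and every value below is a single measurement.

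In the liver the cycle starts in mitochondria. NAGS makes N-acetylglutamate, without which CPS1 does not work; CPS1 joins ammonia and bicarbonate into carbamoyl phosphate, and OTC adds this to ornithine to give citrulline. The carrier SLC25A15 exchanges ornithine and citrulline across the inner membrane, and SLC25A13 (citrin) brings out aspartate. In the cytosol ASS1 joins citrulline and aspartate, ASL releases fumarate and arginine, and ARG1 splits arginine into urea and ornithine. Hepatocytes around the portal vein carry the cycle, while those around the central vein carry GLUL.

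The targeted genes and the cell type were checked first. ZBTB48 was at 4.91 FPKM in the control, 2842 with HKR3 and 4.89 in the siTERT-labelled library. TERT was at 4.69, 4.25 and 5.37 FPKM in the same order, so it was not lower in the siTERT-labelled library, and directions drawn from that library belong to its label. FPKM summed to 596536 in the control, 535516 with HKR3 and 579410 in the siTERT-labelled library, and about 1.04e+07, 1.16e+07 and 1.17e+07 fragments per library were estimated from the smallest values. All 10 hepatocyte markers were expressed. Of 7 fibroblast and stellate cell markers, 0 were tested and their FPKM summed to between 0.224 and 0.273 per library. Of 6 endothelial markers, 5 were listed at 0 in every library and the other was not found among the gene symbols. PTPRC, CD3E, MS4A1 and NKG7 of the 8 immune markers were listed at 0 throughout, while the other 3 tested, LYZ, CD68 and CD14, were expressed. LYZ was at 392, 210 and 392 FPKM, CD68 at 32.7, 29.4 and 44.1 and CD14 at 6.20, 3.13 and 4.82. Of 5 cholangiocyte markers KRT7 was listed at 0, CFTR was below 1 FPKM in every library, and EPCAM, SOX9 and KRT19 were expressed. EPCAM was at 71.7, 60.8 and 70.6 FPKM, SOX9 at 53.3, 47.6 and 54.2 and KRT19 at 1.78, 3.71 and 3.69.

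The control library held a graded set of levels. GLUL was highest at 109 FPKM, with a 95% counting interval from 106 to 112, and ASL followed at 104 FPKM, from 99.5 to 109.6. These intervals are exact Poisson limits on the estimated fragments of each gene and cover counting error only, not the variation between cultures. ASS1 was at 38.1 FPKM and SLC25A13 at 35.3 FPKM. SLC25A15 was at 20.5 FPKM, NAGS at 9.35 and OTC at 6.95. The lowest were CPS1 at 4.43 FPKM, from 3.86 to 5.05, and ARG1 at 3.94 FPKM, from 2.99 to 5.05. Intervals of neighbours in this order overlapped for GLUL and ASL, ASS1 and SLC25A13, NAGS and OTC, and CPS1 and ARG1, and did not for the other 4 neighbouring pairs.

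FPKM is a value per length of transcript, so levels of different genes can be set side by side. GLUL was above 92.0% of the 10868 genes with at least 1 FPKM in the control, ASL above 91.6% and ASS1 above 76.9%. The opening and closing enzymes stood much lower, with CPS1 above 22.5%, OTC above 32.99% and ARG1 above 20.1% of these genes. The summed FPKM of the cytosolic enzymes ASS1, ASL and ARG1 was 12.9 times that of the mitochondrial enzymes CPS1 and OTC in the control, 13.0 times in the HKR3 library and 11.6 times in the siTERT-labelled library. GLUL was 24.7, 26.9 and 23.6 times CPS1.

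**Figure D1:**
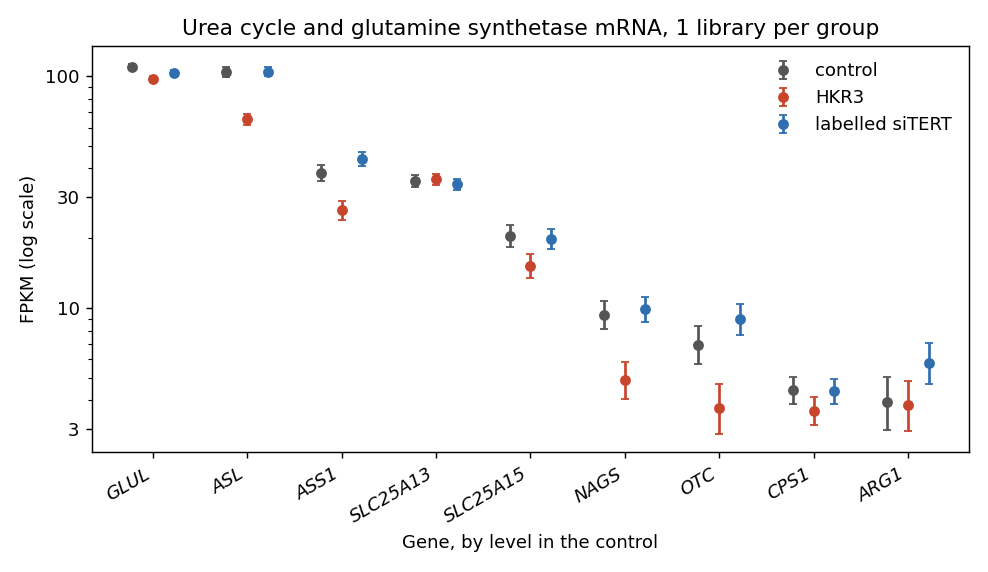
Level of each gene in FPKM (log axis) in the control, HKR3 and labelled siTERT libraries, 1 point per library, with bars for the 95% exact counting interval. GLUL and ASL sit near 100 FPKM in the control while CPS1 and ARG1 sit near 4. The HKR3 points of all genes but SLC25A13 lie below both other libraries, that of ARG1 only just below the control.

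For several members the file holds a close relative with the same reaction or cargo. SLC25A13 was at 35.3 FPKM in the control, 35.99 with HKR3 and 34.2 in the siTERT-labelled library, while SLC25A12 (aralar), the aspartate carrier of muscle and brain, was at 0.353, 0.198 and 0.280. ARG2, the mitochondrial arginase, was at 4.97, 4.73 and 5.30 FPKM, so ARG1 and ARG2 stood at like levels: ARG1 was 0.793 times ARG2 in the control and 1.09 times in the siTERT-labelled library. SLC25A2, a second ornithine carrier, was listed at 0 in all 3 libraries. CAD, which makes the carbamoyl phosphate for pyrimidines in the cytosol, was at 14.3, 15.6 and 21.3 FPKM, which is 3.23, 4.32 and 4.87 times CPS1. GLS2, the liver enzyme that undoes the reaction of GLUL, was at 0.130 and 0.0627 FPKM and was listed at 0 in the siTERT-labelled library.

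**Figure D2:**
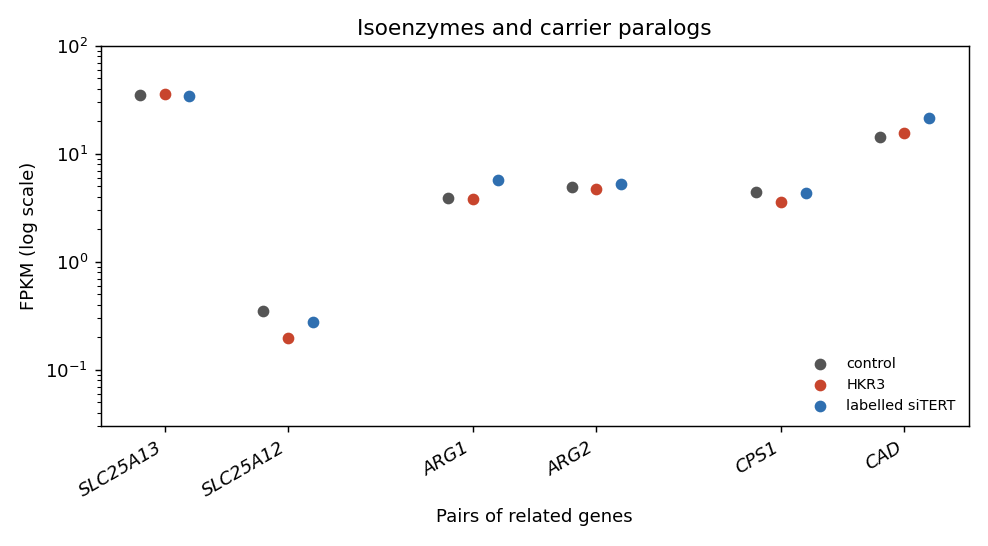
FPKM (log axis) of members and of relatives with the same reaction or cargo, 1 point per library. SLC25A13 stands far above SLC25A12, ARG1 and ARG2 lie close together, and CAD lies above CPS1 in each library.

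The first comparison asked what differed in cells overexpressing HKR3. All 5 cycle enzymes and NAGS were below the control, except that ARG1, already close to it, was above after scaling to TPM. NAGS, OTC and ASL were the furthest below, at 0.525, 0.535 and 0.624 times the control. SLC25A13 and GLUL were closer, at 1.02 and 0.888 times. None of the 9 members reached a 2-fold difference on the log2(FPKM + 1) scale, against 8.05% of all tested genes in either direction. At least 1.5-fold lower, a size chosen after the values were seen, were 3 of 9 members and 12.7% of the tested genes. A value below 0 was found for 8 of 9 members and 51.4% of the tested genes, and the median difference was -0.41 for the members and -0.02 for all tested genes. In bulk RNA, fewer cells expressing a gene and less RNA of it per cell cannot be told apart.

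NAGS (ENSG00000161653) was at 9.35 FPKM in the control, 4.91 with HKR3 and 9.92 in the siTERT-labelled library. Only the HKR3 value stood low: the control and the siTERT-labelled library had overlapping counting intervals. The ratio of HKR3 to control was 0.525, with a 95% exact counting interval from 0.415 to 0.655, and the log2 difference was -0.81. OTC (ENSG00000036473) was at 6.95, 3.71 and 8.96 FPKM. It was lowest in the HKR3 library and highest in the siTERT-labelled library, and its ratio of HKR3 to control was 0.535, from 0.387 to 0.722, with a log2 difference of -0.75. About 115 fragments of OTC in the control and 68 in the HKR3 library stand behind this ratio.

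ASL (ENSG00000126522) was at 104 FPKM in the control, 65.2 with HKR3 and 105 in the siTERT-labelled library. The ratio of HKR3 to control, 0.624, had the narrow interval from 0.578 to 0.673 that 1674 and 1164 estimated fragments allow, and the log2 difference was -0.67. ASS1 (ENSG00000130707) was at 38.1, 26.4 and 43.9 FPKM, with a ratio of 0.692, from 0.612 to 0.781. Both genes were lowest in the HKR3 library, and ASS1 was highest in the siTERT-labelled library. Both share sequence with other genes of the GENCODE annotation that were not analysed here: 39.6% of the 31-base units of ASS1 lie in 15 other genes, including its processed pseudogenes, and 29.8% of those of ASL in 2. How fragments that fit several places were counted is not stated in the labels, so the levels of both are uncertain to that extent.

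CPS1 (ENSG00000021826), the entry enzyme, was at 4.43, 3.60 and 4.38 FPKM in the control, HKR3 and siTERT-labelled libraries. Its ratio of HKR3 to control was 0.814, and the interval from 0.670 to 0.992 ended just under 1. The log2 difference of CPS1 moved from -0.24 to -0.12 after scaling to TPM. ARG1 (ENSG00000118520) was at 3.94, 3.80 and 5.77 FPKM. Here the HKR3 library was at the level of the control, with a ratio of 0.965, from 0.674 to 1.40, and a log2 difference of -0.04 that turned to 0.09 when all libraries were scaled to TPM, which gives each an equal total. The ornithine carrier SLC25A15 (ENSG00000102743) was at 20.5, 15.2 and 19.9 FPKM, with a ratio of 0.739, from 0.628 to 0.868.

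SLC25A13 (ENSG00000004864) was the 1 member not below the control in the HKR3 library, with a ratio of 1.02, from 0.940 to 1.10. GLUL (ENSG00000135821) was at 109 FPKM in the control, 96.9 with HKR3 and 103 in the siTERT-labelled library. Its ratio of HKR3 to control was 0.888, from 0.852 to 0.926, and its log2 difference of -0.17 was -0.02 after scaling to TPM. The same scaling moved the median of all tested genes from -0.02 to 0.12, and the median of the members from -0.41 to -0.27. It also raised the share of higher genes among those at least 2-fold apart from 68.6% to 82.7%.

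**Figure D3:**
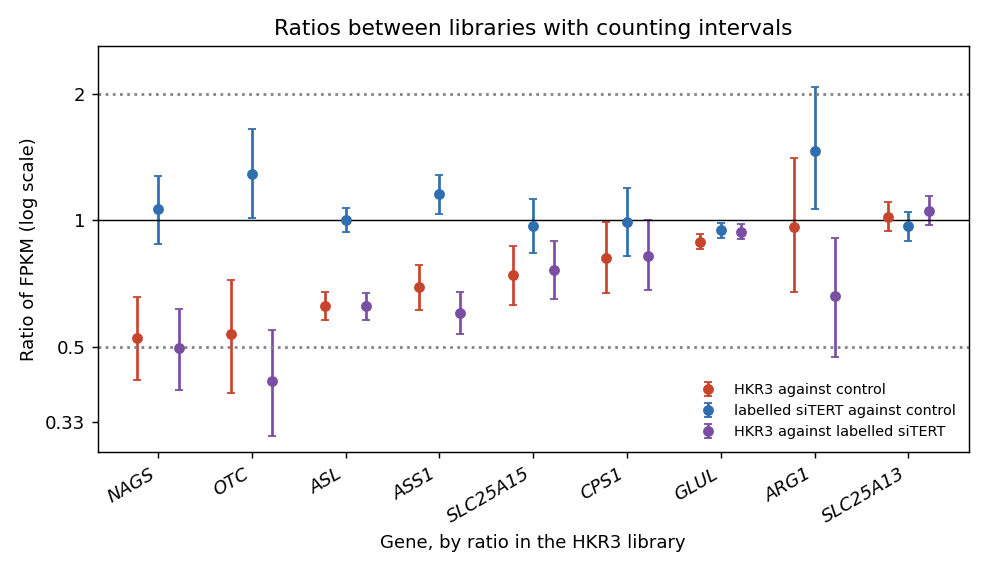
Ratio of FPKM (log axis) for each gene in the 3 comparisons, with bars for the 95% exact counting interval and dotted lines at 2-fold. The HKR3 ratios to the control run from 0.525 for NAGS to 1.02 for SLC25A13, the labelled siTERT ratios lie at 0.946 or above, and OTC against the siTERT-labelled library is at 0.415.

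Differences in the HKR3 library moved with the level of a gene, so each member was set beside the tested genes whose mean FPKM lay within 2-fold of its own. Among 3989 such genes NAGS was at percentile 5.26 of the differences, and among 3726 OTC was at percentile 6.52. ASL was at percentile 10.8 of 1633 genes, ASS1 at 16.9, SLC25A15 at 20.3, CPS1 at 27.7 and ARG1 at 40.1. GLUL, at percentile 53.4 of 1454 genes, and SLC25A13, at 57.7, lay near the middle. For highly expressed genes such as GLUL the median difference of like genes was itself -0.20, and for genes at the level of NAGS it was 0.08. These percentiles describe the 2 libraries and are no test.

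**Figure D4:**
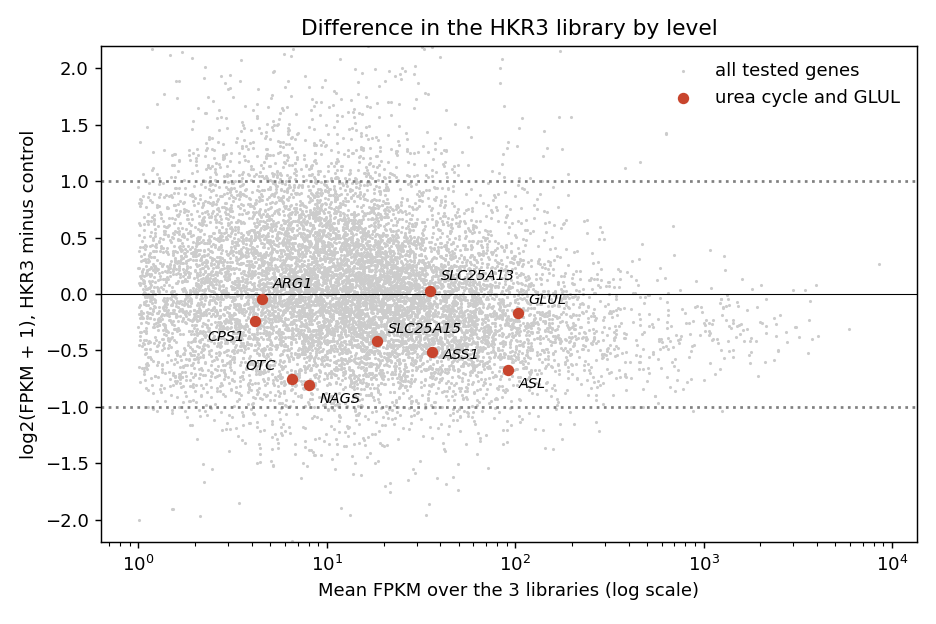
Difference in log2(FPKM + 1), HKR3 minus control, against the mean FPKM over the 3 libraries (log axis) for all 10974 tested genes in grey and the 9 members in red, with dotted lines at 2-fold and 65 genes outside the vertical range of 2.2. NAGS, OTC and ASL lie at the lower side of the cloud but inside the 2-fold lines, and GLUL and SLC25A13 lie in its middle.

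The order of the members differed in part between libraries. In the HKR3 library SLC25A13, at 35.99 FPKM, stood above ASS1, at 26.4 FPKM, with counting intervals that did not overlap, whereas ASS1 was the higher of the pair in the control by 1.08-fold with overlapping intervals. NAGS, ARG1, OTC and CPS1 lay between 3.60 and 4.91 FPKM in the HKR3 library, and neighbours among them had overlapping intervals. The gap between GLUL and ASL, 1.05-fold in the control, was 1.49-fold in the HKR3 library.

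The stretch just before the gene start is shown for the 3 members lowest against the control in the HKR3 library, NAGS, OTC and ASL, and for SLC25A13, which was not lower. These are the 250 bases before the RefSeq start (build GRCh38.p14), 5′ to 3′ on the strand of the gene. Capitals mark matches on either strand to the TATA box TATAAA, the CCAAT box CCAAT, the GC box GGGCGG, the AP-1 site TGANTCA, the cyclic AMP response element TGACGTCA or the telomeric repeat unit TTAGGG, which was searched because HKR3 binds telomeres. RefSeq promoters were matched for all 9 members, at 13 starts.
NAGS: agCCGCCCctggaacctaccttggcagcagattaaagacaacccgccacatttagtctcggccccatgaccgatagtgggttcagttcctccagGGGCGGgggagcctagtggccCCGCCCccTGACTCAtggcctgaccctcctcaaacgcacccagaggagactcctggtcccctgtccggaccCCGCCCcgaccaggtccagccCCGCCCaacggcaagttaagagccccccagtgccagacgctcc
OTC: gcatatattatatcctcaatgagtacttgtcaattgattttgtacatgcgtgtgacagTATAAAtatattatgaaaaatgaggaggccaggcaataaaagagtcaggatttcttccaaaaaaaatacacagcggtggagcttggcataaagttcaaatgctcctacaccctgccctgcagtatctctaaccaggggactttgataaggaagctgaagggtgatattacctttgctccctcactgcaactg
ASL: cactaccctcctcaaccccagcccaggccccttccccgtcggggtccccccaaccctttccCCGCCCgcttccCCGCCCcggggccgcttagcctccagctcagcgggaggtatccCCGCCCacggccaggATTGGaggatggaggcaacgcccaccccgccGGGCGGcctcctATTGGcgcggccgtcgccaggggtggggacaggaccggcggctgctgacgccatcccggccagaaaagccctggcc
SLC25A13: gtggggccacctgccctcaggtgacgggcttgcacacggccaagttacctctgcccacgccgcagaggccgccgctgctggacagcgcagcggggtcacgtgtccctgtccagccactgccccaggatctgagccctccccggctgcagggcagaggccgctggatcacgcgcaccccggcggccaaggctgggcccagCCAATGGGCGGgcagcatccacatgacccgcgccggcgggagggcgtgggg

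The stretch before NAGS lies at chr17:44004372-44004621 on the plus strand, OTC at chrX:38352354-38352603 (plus), ASL at chr7:66075569-66075818 (plus) and SLC25A13 at chr7:96322099-96322348 (minus). The stretches were picked by the differences of their genes, and a link between letters and differences was not tested. NAGS held 65.6% G and C, 13 CpG pairs, 5 GC boxes and 1 AP-1 match. OTC held 40.4% G and C, 2 CpG pairs and, as its 1 match, a TATAAA 192 bases before the start. ASL and SLC25A13 held 74% and 73.6% G and C, with 22 and 21 CpG pairs. The median of 35116 RefSeq promoters was 58% and 11 CpG pairs. A GC box was found in 42.6% of all these promoters, a CCAAT box in 32.0%, TATAAA in 10.7%, the AP-1 letters in 6.57% and the cyclic AMP response element in 1.65%. TTAGGG was found in 7.94% of them and in 0 of the 13 stretches before members. In the stretch of SLC25A13 the CCAAT box and the GC box adjoin, and no other matches overlap in the 4 shown. A match is a description of the letters only.

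The second comparison set the siTERT-labelled library, in which TERT was not lower, against the control. None of the 9 members was 2-fold apart, against 0.483% of the tested genes, and 4 of 9 were below 0, against 52.6%. ARG1 was at 5.77 FPKM against 3.94, a ratio of 1.46 with an interval from 1.06 to 2.07, which rests on about 100 and 60 fragments. OTC was at 8.96 against 6.95 FPKM, a ratio of 1.29, from 1.01 to 1.65. ASS1 was at 43.9 against 38.1 FPKM, a ratio of 1.15, from 1.04 to 1.28. Among tested genes of like level ARG1 was at percentile 95.7 of the differences, OTC at 92.3 and ASS1 at 89.4.

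The other 6 members lay close to the control in the siTERT-labelled library, where TERT was not lower. NAGS had a ratio of 1.06, ASL of 1.001, CPS1 of 0.989, SLC25A15 of 0.969 and SLC25A13 of 0.966, each with an interval that included 1. GLUL had a ratio of 0.946, from 0.908 to 0.986. CPS1 turned from -0.01 to 0.02 in log2 after scaling to TPM.

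Both comparisons above use the same control library. The HKR3 library was also set against the siTERT-labelled library. Each log2 difference here equals that of HKR3 minus that of siTERT in the comparisons above. The same HKR3 library is used again, so this is no independent check. OTC was at 3.71 against 8.96 FPKM, a ratio of 0.415, from 0.306 to 0.549, with a log2 difference of -1.08. It was the 1 member of 9 past 2-fold, against 5.49% of the tested genes in either direction and 1.38% lower. At least 1.5-fold lower were 4 of 9, against 9.71%, and below 0 were 8 of 9, against 50.5%. The call of OTC was lost with a pseudocount of 5 FPKM, at -0.68. NAGS had a ratio of 0.495, from 0.395 to 0.614, and stayed short of 2-fold with the pseudocount, at -0.89. ASS1 had a ratio of 0.600, ASL of 0.623, ARG1 of 0.659, SLC25A15 of 0.763 and CPS1 of 0.824, each with an interval below 1. The interval of CPS1 ended at 0.999, and the log2 difference of this gene moved from -0.22 to -0.15 after scaling to TPM. GLUL was at 0.939, from 0.901 to 0.978, and turned from -0.09 to 0.02 in log2 after scaling to TPM. SLC25A13 was at 1.05, from 0.975 to 1.14.

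The genes whose pair of differences with the control was closest to that of NAGS, the member with the largest difference in the HKR3 library, were DECR1, ENTPD6 and ASB9, at Euclidean distances of 0.0129, 0.0194 and 0.0205 in log2 over the 2 differences, which come from 3 libraries. DECR1 was at 41.9 FPKM in the control, 23.6 with HKR3 and 43.9 in the siTERT-labelled library. With so few values, 59 tested genes lay within 0.1 of NAGS. For SLC25A13, the highest member, 611 genes did, with LTB4R2, TMEM126A and SLC25A28 the closest.

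Around the cycle, enzymes that make or use glutamine or glutamate were next. Of 20 tested, 2 were lower by 2-fold or more and 1 was higher by as much in the HKR3 library, against 2.52% and 5.52% of all tested genes. Below 0 were 17 of the 20, against 51.4% of all tested genes, with a median of -0.40. After scaling to TPM 13 were below 0, against 41.1% of all tested genes, and the median was -0.25. ASNS, which moves the amide of glutamine to aspartate, was at 86.8 FPKM in the control, 25.3 with HKR3 and 36.2 in the siTERT-labelled library, and so was lower by 2-fold or more in both treated libraries. GPT2, the mitochondrial alanine aminotransferase, was at 32.5, 13.7 and 30.1 FPKM. GLYATL1, a glutamine acyltransferase, was weakly expressed at 0.601, 2.55 and 1.36 FPKM and was the 1 higher gene. GLUD1, glutamate dehydrogenase, which releases ammonia from glutamate, was at 118, 71.2 and 97.4 FPKM, but shares 45.4% of its 31-base units with other genes, chiefly GLUD2, at 23.6, 15.01 and 23.5 FPKM.

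Genes on the side routes of ornithine and arginine were lower in the HKR3 library in 12 of 13 tested cases, with a median of -0.56 (10 cases and -0.41 after scaling to TPM), and 2 of the 13 were lower by 2-fold or more. Over all tested genes 51.4% were below 0 and 2.52% lower by 2-fold or more. These 2 are the enzymes of creatine synthesis. GATM, which moves the amidino group of arginine to glycine, was at 8.30, 2.97 and 7.95 FPKM, and GAMT, which methylates the product, at 233, 95.1 and 204 FPKM in the control, HKR3 and siTERT-labelled libraries. PYCR1, the last enzyme of proline synthesis, was at 192, 102 and 173 FPKM. OAT, which turns ornithine into the precursor of proline and glutamate, was at 52.3, 49.5 and 41.4 FPKM. ODC1, which starts polyamine synthesis from ornithine, was at 327, 232 and 289 FPKM.

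Of 18 tested carriers of glutamine, glutamate and cationic amino acids, 3 were lower by 2-fold or more with HKR3 and 0 were higher by as much, against 2.52% and 5.52% of all tested genes. Below 0 were 11 of the 18, against 51.4%, with a median of -0.18 that was -0.03 after scaling to TPM. SLC1A5, a plasma membrane carrier of glutamine, was at 138, 62.3 and 117 FPKM, and SLC7A5, which exchanges glutamine for large neutral amino acids, at 161, 69.7 and 154 FPKM. SLC25A29, a mitochondrial carrier of basic amino acids, was at 4.66, 1.67 and 4.50 FPKM. SLC38A3, at 7.96, 3.54 and 6.52 FPKM, fell just short of the size rule, with a log2 difference of -0.98 for HKR3 against control. Values above the control were found for SLC3A2, the partner chain of SLC7A5, at 194, 304 and 198 FPKM, and for SLC38A2, another glutamine carrier, at 57.9, 86.3 and 63.1 FPKM, both short of 2-fold. Of the arginine carriers, SLC7A1 was at 18.2, 11.99 and 17.1 FPKM, and SLC7A2, the carrier of the liver, at 37.2, 41.7 and 37.9 FPKM.

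Pyrimidine synthesis draws on carbamoyl phosphate and aspartate as the urea cycle does. Of 8 genes tested, 1 was lower by 2-fold or more with HKR3, against 2.52% of all tested genes, and 7 were below 0, against 51.4%. The median was -0.55, or -0.42 after scaling to TPM with again 7 below 0. UMPS, which completes uridine monophosphate, was at 34.6 FPKM in the control, 9.55 with HKR3 and 20.5 in the siTERT-labelled library, and the log2 difference from the control was largest in the former, at -1.76. DHODH, the step before it, was at 10.3, 5.40 and 7.66 FPKM. CAD, the entry enzyme, was the 1 gene above 0 in the HKR3 library.

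Genes of the malate-aspartate shuttle and linked mitochondrial enzymes were below 0 in the HKR3 library in 11 of 11 tested cases, with a median of -0.47, and in 10 of 11 with -0.34 after scaling to TPM. Over all tested genes 51.4% were below 0, or 41.1% after that scaling. SLC25A10, the dicarboxylate carrier, was at 59.6, 22.5 and 43.5 FPKM and was the 1 gene lower by 2-fold or more, against 2.52% of all tested genes. SLC25A11, the malate carrier of the shuttle, was at 96.7, 60.01 and 89.9 FPKM, and FH, which takes up the fumarate that ASL releases, at 48.6, 39.6 and 41.2 FPKM. CA5A, the mitochondrial carbonic anhydrase that supplies bicarbonate to CPS1 in the liver, was below 0.1 FPKM in each library. CA5B, the other mitochondrial carbonic anhydrase, was not among the tested genes and was at 0.371, 1.73 and 0.894 FPKM, a log2 difference of 0.99 for HKR3 against control.

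**Figure D5:**
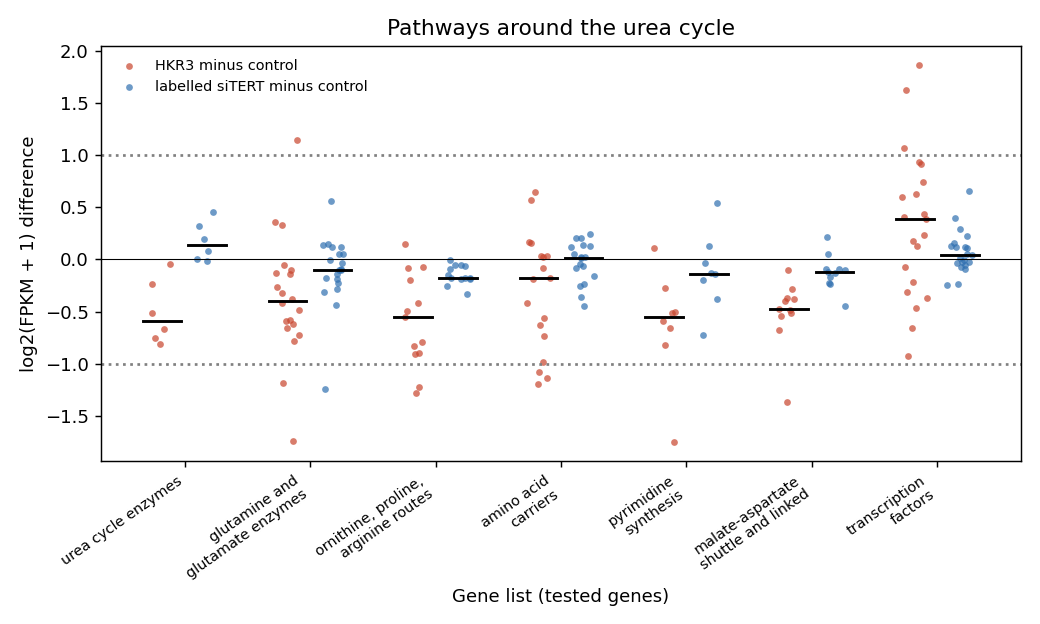
Difference in log2(FPKM + 1) from the control for the tested genes of 7 lists, HKR3 in red and labelled siTERT in blue, 1 point per gene with a black line at the median and dotted lines at 2-fold. The HKR3 medians run from -0.59 for the urea cycle enzymes to 0.38 for the transcription factors, and the labelled siTERT medians from -0.18 for the side routes of ornithine and arginine to 0.14 for the urea cycle enzymes.

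Transcription factors reported elsewhere to act on urea cycle genes had values on both sides of the control. Of 21 tested in the HKR3 library, 3 were higher by 2-fold or more and 0 were lower by as much, against 5.52% and 2.52% of all tested genes. Below 0 were 7 of the 21, against 51.4%, and the median was 0.38, or 0.56 after scaling to TPM. The difference between this list and the enzymes was not tested. CEBPD was at 39.5, 147 and 63.1 FPKM in the control, HKR3 and siTERT-labelled libraries, and NR3C1, the glucocorticoid receptor, at 2.85, 10.9 and 3.73 FPKM. FOXA2 was at 30.4, 65.0 and 33.4 FPKM. CEBPA, a main hepatocyte factor, was at 358, 226 and 336 FPKM, and HNF4A, another, at 72.1, 55.4 and 84.7 FPKM. PPARGC1A, a coactivator of the fasting response, was likewise below 0.1 FPKM.

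Hepatocyte markers were set beside the cycle enzymes. In the HKR3 library 9 of 10 markers were below 0, against 51.4% of all tested genes, with a median of -0.55. APOA1, at 1461, 713 and 1575 FPKM, was the 1 marker lower by 2-fold or more, and FGB was the 1 above 0, at 234, 353 and 254 FPKM. The summed FPKM of the markers was 11792 in the control, 8337 with HKR3 and 11601 in the siTERT-labelled library. The cycle enzymes and NAGS had a median of -0.59, with 6 of 6 below 0 and 0 of 6 lower by 2-fold or more. After scaling to TPM 9 of 10 markers and 5 of 6 enzymes were below 0. The part of the markers in the values of the members was not tested.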

How the data were processed

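The authors deposited 1 table of gene-level FPKM for 3 libraries of Hep3B cells, made from messenger RNA with a stranded TruSeq kit per the labels' protocols. The build was hg19 and the tools were Cuffdiff 2.2.1, STAR 2.5.0 and Cufflinks, per the submitters' processing notes. Their settings, the use of strand in counting and any further scaling between libraries are not stated there or in the labels. The labels do not name the unit, which was read from the Cufflinks header and the values. FPKM divides out length and library size, and a gene that takes many fragments can lower the others.

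Of 19869 identifiers, 19310 were matched to a symbol. The 4 short noncoding RNAs were left out of the tested genes. Differences are in log2(FPKM + 1), a pseudocount of 1 FPKM that understates changes of weakly expressed genes. With 1 library per group no test was possible, and 2-fold served as the size rule. Fragments were estimated from the FPKM worth of 1 fragment in low genes with 1 transcript of at least 1000 bases (GENCODE 29) and the shortest consensus coding transcript of each member. From these, exact 95% intervals were taken (Poisson for levels, Clopper-Pearson for ratios). If FPKM was scaled further, they are sizes after scaling rather than depths. Sequence sharing was counted in units of 31 bases on either strand. No hg19 coordinates of genes are given, because the annotation at hand is for another build than the table. The promoter stretches are placed on GRCh38.p14. The calculation was tested on simulated data (Python 3.11.15, SciPy 1.17.1). These data held counting error only, with 4-fold changes and a known depth. Variation between cultures and the estimate of depth were not covered.

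The members, the gene lists and the alternatives were chosen with earlier results of these data known. Named were the 9 members, ZBTB48 and TERT, in each list the tested genes at least 2-fold apart from the control, some of the 4 with the largest difference in the HKR3 library, and the 3 genes closest to the lowest and highest member. SLC25A12, SLC25A2, GLS2, GLUD1, GLUD2, OAT, ODC1, SLC38A2, SLC3A2, SLC7A1, SLC7A2, FH, CA5A, CA5B, CEBPA, HNF4A, PPARGC1A, FGB, the zone genes and markers given as low or listed at 0, and the promoter motifs were named outside this rule, after values were seen. Some genes of the lists are not reported here by name.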

Additional observations from a re-analysis of the deposited data

How the results depend on the processing

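No member was 2-fold apart from the control in either treated library with 2 other pseudocounts and 2 other scalings. The 2 other filters gave the same, but a filter only picks genes and cannot change the difference of a member. A size rule of 1.5-fold, added after the values were seen, called 3 in HKR3 against control. In HKR3 against the siTERT-labelled library the count of 1 became 0 with a pseudocount of 5 FPKM and 4 with the 1.5-fold rule. Over all tested genes, higher and lower counts were 606 and 277 for HKR3 against control, 31 and 22 for siTERT against control, and 451 and 151 for HKR3 against siTERT. With a pseudocount of 5 FPKM they were 238 and 93, 10 and 3, and 169 and 34. With a pseudocount of 0.1 FPKM the lower counts were 488, 57 and 323, and siTERT against control had 103 higher. Scaling to TPM gave 991, 47 and 701 higher genes. For siTERT against control, a mean FPKM of at least 5 gave 17 and 5, by fewer genes tested, and no filter gave 37 lower. The cause of the other shifts was not tested. Of 156 alternative values of single members, 150 were unchanged or moved within their counting error. The values under the 2 other filters are among these 150 and could not move. The other 6 were ASL, SLC25A13 and GLUL after scaling to TPM in both comparisons with the HKR3 library. OTC, the 1 member past 2-fold, kept its sign. At a mean FPKM of at least 5, CPS1 and ARG1 were no longer tested. Depth limits ARG1 and OTC most, with 60 and 115 estimated fragments in the control. No paired analysis was possible because each group has 1 library.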

Other observations

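Many genes of the hepatocyte zones other than the members were too low to be tested. Of 13 periportal genes, 4 were tested, of which 4 were below 0 with HKR3, with a median of -0.36 (3 and -0.21 after scaling to TPM), and PCK1, SDS and G6PC1 were below 1 FPKM in every library. HAL, which releases ammonia from histidine, was at 3.48 FPKM in the control, 1.80 with HKR3 and 2.98 in the siTERT-labelled library. Of 17 pericentral genes, 10 were tested, of which 7 were below 0, with a median of -0.28 (5 and -0.17 after scaling to TPM). Over all tested genes 51.4% were below 0, or 41.1% after scaling. Of the untested, CYP2E1, CYP1A2 and CYP3A4 were below 1 FPKM throughout. AHR was at 14.8, 51.4 and 23.5 FPKM, the 1 pericentral gene at least 2-fold higher in the HKR3 library, and TBX3 was at 6.55, 11.8 and 8.27 FPKM. LGR5, a target of beta-catenin like GLUL, was at 1.75, 0.742 and 0.638 FPKM.

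Among 17 tested enzymes of amino acid breakdown, 13 were below 0 with HKR3, against 51.4% of all tested genes, and the median was -0.44. Lower by 2-fold or more were 2, AMT and BCAT1, against 2.52%. KYNU, which cleaves kynurenine, was at 8.17, 35.6 and 10.4 FPKM and was the 1 gene at least 2-fold higher, against 5.52%. AMT, which releases ammonia from glycine, was at 63.5, 30.03 and 47.1 FPKM, and BCAT1, an aminotransferase of branched-chain amino acids, at 28.98, 12.96 and 21.5 FPKM. CBS, which condenses homocysteine and serine, was at 2.25, 3.54 and 6.56 FPKM, at least 2-fold higher in the siTERT-labelled library, where TERT was not lower.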
